A study of Mus musculus with 188 samples.

Results

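The cytosolic heat shock chaperones described here are 10 genes: Hspa1a, Hspa1b, Hspa8, Hspa4, Hsph1, Hsp90aa1, Dnajb1, Dnajb4, Hspb1 and Bag3. They were chosen by name, as the entries of the count tables whose Ensembl identifier maps to these symbols, out of 25655 genes listed in batch 1 and 25528 listed in batches 2 and 3. All 10 were found in both sets and all 10 passed the filter on low counts in both. The lowest count of any of them in a library with a group was 58, for Hspa1b in batch 1.

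The libraries were made from poly(A) RNA of brain slice cultures (BSC), coronal slices of young adult wild-type C57BL/6J mice kept on membrane inserts and exposed on culture day 7. Of 188 libraries, 167 were placed by treatment, dose and time in 18 groups, and 21 were not and entered no comparison. Of these, 10 at 24 h and 10 at 48 h carried the treatment tag HbHpx_400uM, and 1 carried a tag with no treatment. Their labels leave the group open. Batch 1 held 10 libraries each, all of 24 h, of untreated control, of heme bound to albumin (heme-albumin) at 12.5, 50, 200 and 400 μM, and of heme bound to hemopexin (hemeHpx) at 200 μM. The titles of the hemeHpx libraries read heme-haptoglobin while their treatment tag and library names read hemehpx, and they were grouped by the treatment tag. In batches 2 and 3 there were, at 24 h, 10 libraries of control, 10 of hemoglobin (Hb) at 200 μM, 10 of Hb at 400 μM, 12 of haptoglobin alone (Hp) at 400 μM, 8 of the hemoglobin-haptoglobin complex (HbHp) at 200 μM and 4 of HbHp at 400 μM. At 48 h the same treatments had 9, 10, 10, 11, 8 and 5 libraries. All proteins added were of human origin, per the methods of the study. As limits of this model the study names the use of human proteins on mouse tissue and a shortage of microglia in adult slices.

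The groups of batches 2 and 3 were not spread evenly. All Hp and HbHp libraries were sequenced in batch 3, which held 2 of the control libraries at each time, 1 of each prefix named next. Library names began with E1 or E2, whose meaning the labels do not give. All HbHp libraries carried E2, as did 3 controls at 24 h and 2 at 48 h, and Hp libraries carried both. Batch and this prefix were therefore terms of the model, and values within a prefix are given beside the pooled ones. Total counts ran from 11038484 to 44199060 in batch 1 and from 15587938 to 54174784 in batches 2 and 3. Depth followed treatment in batches 2 and 3. Group medians were 42654266 to 47386490 for control and Hb, and 27224336 to 29560038 for Hp and HbHp. Markers of neurons, astrocytes, oligodendrocytes, microglia, endothelial cells, mural cells and choroid plexus (37 genes) all passed the filter in both sets. In the controls of batch 1, 1 of the 7 neuronal markers and all 3 choroid plexus markers had a median under 1 CPM. Libraries of a group were labelled as separate samples and nothing says that they came from separate animals, so the p-values measure the spread between these libraries, which may be technical. Some groups held libraries that shared a code in their names, and the main tests took these as separate too. In bulk RNA, a change in the cells present and a change in RNA per cell cannot be told apart.

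Heat shock chaperones keep proteins folded in the cytosol and nucleus. When unfolded proteins build up, heat shock factor 1 (HSF1) is released from chaperones, binds arrays of inverted GAA units called heat shock elements, and drives transcription of inducible members such as Hspa1a and Hspa1b. The HSP70 proteins bind exposed hydrophobic stretches under ATP control, J-domain proteins bring clients to them and start ATP hydrolysis, and HSP110 and BAG proteins release the nucleotide. HSP90 takes over clients near their folded state, and small heat shock proteins hold unfolded clients in solution without ATP. In brain, HSPA8 is abundant without stress, while HSPA1A and HSPA1B are low in unstressed tissue.

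The bases before the transcription start are shown for some of the members. They are the 2 inducible HSP70 genes, the small heat shock protein Hspb1, the HSP110 gene Hsph1 and the J-domain gene Dnajb1. The J-domain gene Dnajb4, called as often against control as Dnajb1, is described below and not shown. Each run is the 250 bases before a RefSeq start, written 5′ to 3′ on the gene's own strand in GRCm38.p6, and capitals mark GAANNTTC or TTCNNGAA, the 2 arrangements of a pair of inverted GAA units, which read the same on both strands.
Hspa1a (chr17:34972157-34972406, minus strand): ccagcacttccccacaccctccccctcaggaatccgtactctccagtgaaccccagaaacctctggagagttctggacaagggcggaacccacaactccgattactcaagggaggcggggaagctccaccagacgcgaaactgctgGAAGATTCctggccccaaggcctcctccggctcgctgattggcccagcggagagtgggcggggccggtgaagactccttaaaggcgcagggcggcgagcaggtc
Hspa1b (chr17:34959239-34959488, minus strand): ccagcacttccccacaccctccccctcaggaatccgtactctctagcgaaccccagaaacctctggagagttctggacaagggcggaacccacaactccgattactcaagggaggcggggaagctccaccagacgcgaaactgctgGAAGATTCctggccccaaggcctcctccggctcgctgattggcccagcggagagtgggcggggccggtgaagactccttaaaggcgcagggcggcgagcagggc
Hspb1 (chr5:135887669-135887918, plus strand): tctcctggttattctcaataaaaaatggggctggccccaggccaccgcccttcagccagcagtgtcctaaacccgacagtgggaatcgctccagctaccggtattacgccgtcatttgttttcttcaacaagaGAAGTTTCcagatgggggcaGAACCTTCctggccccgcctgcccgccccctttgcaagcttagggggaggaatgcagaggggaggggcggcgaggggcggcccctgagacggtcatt
Hsph1 (chr5:149636316-149636565, minus strand): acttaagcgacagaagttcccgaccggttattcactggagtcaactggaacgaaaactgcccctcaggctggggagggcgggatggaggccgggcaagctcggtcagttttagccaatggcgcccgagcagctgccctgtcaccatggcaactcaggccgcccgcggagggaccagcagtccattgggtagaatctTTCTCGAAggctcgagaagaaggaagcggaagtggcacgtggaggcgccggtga
Dnajb1 (chr8:83607925-83608174, plus strand): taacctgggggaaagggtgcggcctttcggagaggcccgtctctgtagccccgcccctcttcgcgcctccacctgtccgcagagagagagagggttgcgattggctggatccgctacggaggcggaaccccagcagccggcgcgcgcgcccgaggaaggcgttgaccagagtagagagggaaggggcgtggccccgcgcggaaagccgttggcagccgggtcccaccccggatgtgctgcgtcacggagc
The Hspa1a and Hspa1b runs were identical at 247 of 250 positions (98.8%) and each held GAANNTTC at −104 to −97. Hspb1 held it at −117 to −110 and at −97 to −90, Hsph1 held TTCNNGAA at −54 to −47, and the Dnajb1 run held neither arrangement. With the 50 bases after the start included, 6 of the 8 members found in the promoter table held one of the pairs, against 15.1% of the 32851 promoters in that table. The 2 shares are not like for like. A member counted if any of its starts held a pair, and Dnajb1, Dnajb4 and Hsph1 had a further start. The near-identical Hspa1a and Hspa1b counted separately. Bag3 held GAANNTTC at 43 to 50. Dnajb4 held TTCNNGAA at −14 to −7 of 1 start and neither arrangement at its other start. Hsph1 held further pairs at 16 to 28 that overlapped in an unbroken alternation of GAA and TTC units, an arrangement in 0.603% of promoters. Hspa4 held neither, and Hspa8 and Hsp90aa1 were not in the table. These are matches of letters in a short window, not measured binding sites.

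In untreated BSC the constitutive HSP70 Hspa8 had the highest level and the inducible HSP70 genes the lowest. Per kilobase of transcript, Hspa8 had a mean level of 350 CPM (read counts scaled by TMM-adjusted library size) in batch 1 controls, Hsp90aa1, the stress-inducible form of cytosolic HSP90, 105 and Hspa4, an HSP110-type exchange factor, 68.5. The inducible Hspa1a and Hspa1b stood at the bottom with 4.19 and 3.41 CPM per kilobase. Bag3 (37.9), Hsph1 (25.7), Hspb1 (21.3), Dnajb4 (9.75) and Dnajb1 (9.71) lay between them. The lowest members were also those that varied most among batch 1 controls, with a coefficient of variation of 40.1% for Hspa1a and 37.2% for Hspa1b against 9.49% for Dnajb4. In the controls of batches 2 and 3 the first and the last places were the same, with 430 CPM per kilobase for Hspa8 and 4.62 for Hspa1b at 24 h.

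**Figure D1:**
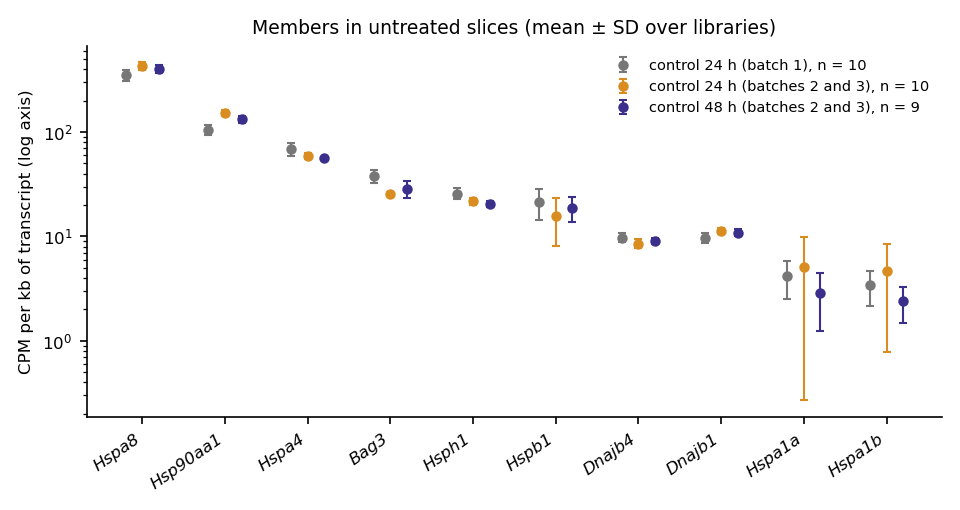
Level of each member in untreated brain slice cultures, in CPM per kilobase of transcript on a log axis, as mean and SD of the controls of batch 1 (24 h, n = 10) and of batches 2 and 3 (24 h, n = 10, and 48 h, n = 9). Hspa8 lies at 350 to 430 in the 3 groups and Hspa1b at 2.38 to 4.62.

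Hspa1a and Hspa1b are near-identical genes, and 58.8% and 62.3% of the 50-base stretches of their transcripts are shared, so how reads were divided between them is uncertain. The ratio of Hspa1a to Hspa1b in CPM ran from 0.988 to 1.73 in batch 1 (median 1.23, 60 libraries) and from 0.693 to 1.54 in batches 2 and 3 (median 1.16). Hspa1a also overlaps Gm20481 on the other strand, Bag3 overlaps 2610306O10Rik, and Hspa8 holds small nucleolar RNA genes in its introns. The strand setting of the counting is not given in the sources used here.

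The heme-albumin series asked how the chaperones changed with the dose of heme at 24 h. Hspa1a, Hspa1b, Dnajb1, Hsph1 and Bag3 were higher than control at 200 and at 400 μM, Hspb1 was higher at 400 μM, and Hspa8, Hspa4, Hsp90aa1 and Dnajb4 did not pass the test at any dose. At 400 μM Hspa1a reached 2.87-fold the control level (95% interval 2.09 to 3.94) and Hspa1b 3.14-fold (2.31 to 4.27), while the other members that rose did so by 1.33-fold to 1.7-fold. At 12.5 μM and at 50 μM 0 members passed edgeR's quasi-likelihood test, and DESeq2 also called 0 at both doses. Of all genes tested, 0.045% passed at 12.5 μM and 0.463% at 50 μM. At each of these doses 1 member, Dnajb1, had an unadjusted p under 0.05, with a log2 fold change of 0.12 at 12.5 μM and 0.15 at 50 μM.

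Among the HSP70 genes, Hspa1a had a lowest, median and highest level of 7.27, 11.3 and 24.5 CPM in the 10 controls. Its levels were 11.1, 20.1 and 30.4 CPM at 200 μM and 16.4, 37.7 and 49.6 CPM at 400 μM. The median rose at each of these doses but the ranges overlapped, since the lowest library at 400 μM lay below the highest control. The log2 fold change was 0.66 ± 0.23 (SE) at 200 μM (adjusted p = 0.042) and 1.52 ± 0.23 at 400 μM (adjusted p = 4.4e-07). Hspa1b, its near-copy, had 5.27, 9.57 and 16.2 CPM in controls, 8.55, 16.9 and 24.0 CPM at 200 μM, and 13.7, 30.6 and 41.1 CPM at 400 μM. Its log2 fold changes were 0.76 ± 0.22 (adjusted p = 0.013) and 1.65 ± 0.22 (adjusted p = 3e-08). Both also differed between the doses, by 0.86 ± 0.22 for Hspa1a (adjusted p = 0.029) and 0.89 ± 0.21 for Hspa1b (adjusted p = 0.018). No other member passed, although 7 of the 10 had an unadjusted p under 0.05, and with a correction for the GC content and length of transcripts Dnajb1 (0.19, adjusted p = 0.013), Hsph1 (0.21, adjusted p = 0.019) and Hsp90aa1 (0.12, adjusted p = 0.047) passed as well. Between 400 and 200 μM 0.707% of all genes were called higher. The constitutive Hspa8 had 894, 1091 and 1337 CPM in controls and 970, 1102 and 1494 CPM at 400 μM, a log2 fold change of 0.05 that did not pass the test.

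Of the HSP110 proteins, which act as nucleotide exchange factors of HSP70, Hsph1 rose and Hspa4 did not. Hsph1 had 105, 119 and 154 CPM in controls, 134, 142 and 173 CPM at 200 μM and 143, 159 and 209 CPM at 400 μM. Every library at these doses lay above the control median, and the ranges overlapped. The log2 fold changes were 0.25 ± 0.07 (adjusted p = 0.0093) and 0.44 ± 0.07 (adjusted p = 7.8e-07). Hspa4 had medians of 314, 316 and 315 CPM in control, 200 μM and 400 μM. The HSP90 gene Hsp90aa1 had 341 CPM as the control median and 359 CPM at 400 μM (log2 fold change 0.09, adjusted p = 0.2).

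The J-domain proteins Dnajb1 and Dnajb4, both partners of cytosolic HSP70, went apart. Dnajb1 had 22.9, 29.6 and 34 CPM in controls, 31.3, 33.9 and 36.4 CPM at 200 μM and 31.6, 39.3 and 44 CPM at 400 μM. Its spread within a group was small, and it was called with 0.23 ± 0.06 on the log2 scale (adjusted p = 0.0055) at the lower and 0.41 ± 0.06 (adjusted p = 1.4e-07) at the higher of these doses. Dnajb4 had medians of 48.6 CPM in controls and 47.1 CPM at 400 μM, a log2 fold change of 0.02. Hspb1, the small heat shock protein, had 12.1, 18.3 and 33.1 CPM in controls, 13.3, 16 and 41.2 CPM at 200 μM and 14.2, 24.9 and 70.5 CPM at 400 μM. Its libraries at 400 μM were widely scattered, and its log2 fold change was −0.05 ± 0.26 at 200 μM and 0.77 ± 0.26 at 400 μM (adjusted p = 0.019). Bag3, the exchange factor that couples HSP70 to HSPB proteins and to autophagy, had 76.4, 102 and 115 CPM in controls, 99.6, 116 and 131 CPM at 200 μM and 114, 128 and 141 CPM at 400 μM. Its log2 fold changes were 0.25 ± 0.07 (adjusted p = 0.017) and 0.41 ± 0.07 (adjusted p = 1.6e-05).

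**Figure D2:**
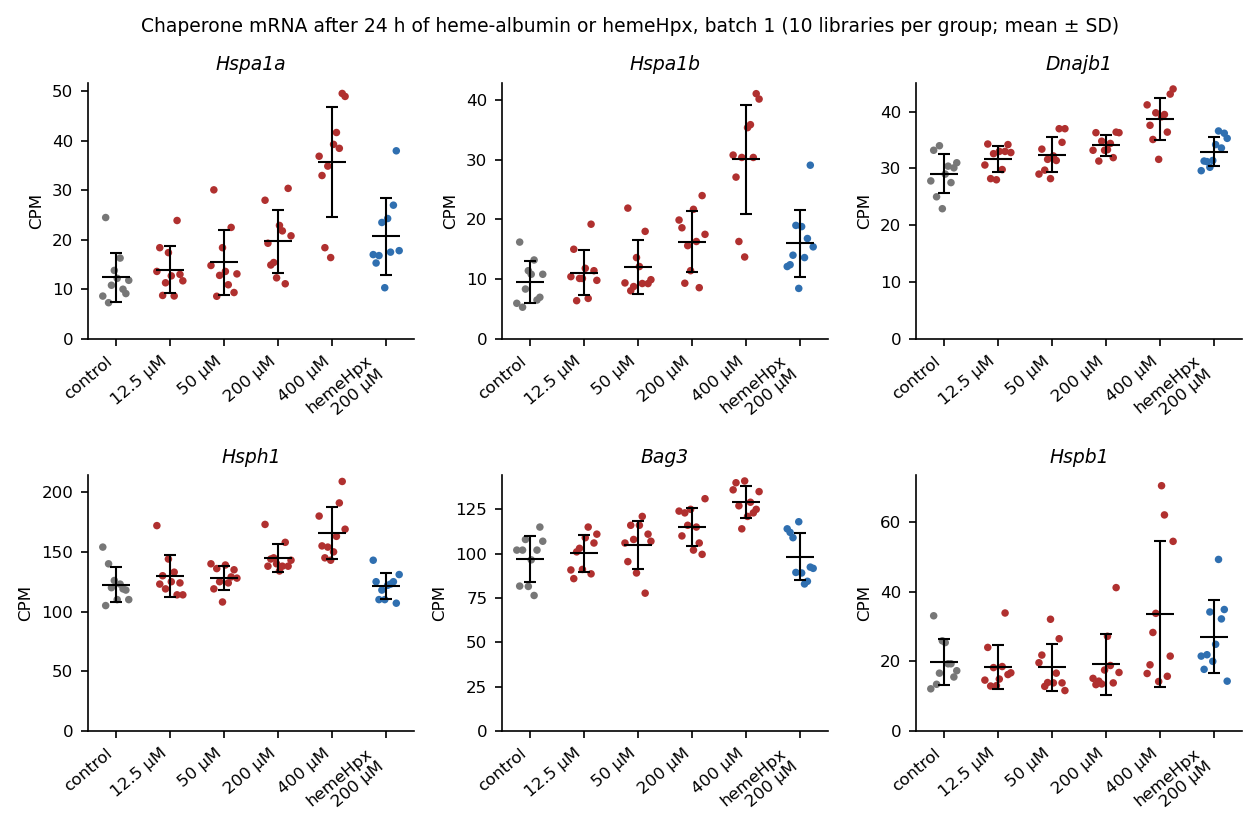
CPM of Hspa1a, Hspa1b, Dnajb1, Hsph1, Bag3 and Hspb1 in each batch 1 library at 24 h, by treatment, with the mean and SD of the 10 libraries of a group. The Hspa1a median goes from 11.3 in control to 20.1 at 200 μM and 37.7 at 400 μM heme-albumin, and Hspb1 spreads from 14.2 to 70.5 at 400 μM.

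In counts, 5 of the 10 members were higher at 200 μM, where 6.98% of all genes were, and 6 were higher at 400 μM, where 14.7% were. The median log2 fold change of the members was 0.15 and 0.41, against −0.01 over all genes at 400 μM. With a correction for the GC content and length of transcripts 2 of the calls at 200 μM were lost, Hspa1a with 0.56 (adjusted p = 0.071) and Bag3 with 0.17 (adjusted p = 0.19), and Hsp90aa1 was called higher at 400 μM (0.15, adjusted p = 0.00056). Markers of other cells moved at the same doses. At 200 μM 10 of the 37 markers were lower, where 1027 of 15554 genes were, 5 of the 6 microglial and 3 of the 6 astrocytic ones among them. At 400 μM 8 were lower, where 2226 of 15554 genes were, and 1, the neuronal Slc17a7 (log2 fold change 1.66), was higher. The summed level of the microglial markers ran from 172 to 920 CPM in controls and from 145 to 532 CPM at 400 μM, and that of the astrocytic markers from 7621 to 11737 CPM and from 5411 to 9405 CPM. Their part in the chaperone values was not tested.

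Part of the wider chaperone network rose as well. Of 42 other genes of heat shock factors, co-chaperones, small heat shock proteins, the chaperonin TRiC and mitochondrial chaperones, 0 passed in edgeR at 12.5 or 50 μM, 6 were higher and 1 lower at 200 μM, and 15 were higher and 2 lower at 400 μM. Of 15554 genes tested, 1086 were higher and 1027 lower at 200 μM, and 2284 were higher and 2226 lower at 400 μM. Hspa9, the mitochondrial HSP70, had a log2 fold change of 0.37 at 200 μM and 0.61 at 400 μM (adjusted p = 9.1e-14) and was the 1 gene of the list that differed between these doses (0.24). Hsf1, the factor itself, was higher at both doses, by 0.28 and 0.31. At 400 μM the HSP90 co-chaperones Ptges3 (0.27), Stip1 (0.23) and Ahsa1 (0.20) were higher, as were the TRiC subunits Cct5 (0.26), Cct7 (0.25) and Cct4 (0.25), the J-domain genes Dnajb2 (0.36), Dnajc7 (0.22) and Dnajb6 (0.19), and the small heat shock protein Hspb8 (0.34). Hspb6, another small heat shock protein, was lower, by 0.33 at 200 μM and 0.37 at 400 μM on the log2 scale.

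HemeHpx at 200 μM asked what the same amount of heme did when held by hemopexin. Against control, Hspa1a (1.66-fold), Hspa1b (1.67-fold) and Dnajb1 (1.13-fold) were higher and Hspa4 was lower (0.841-fold), so 3 of 10 members were higher where 3.77% of all genes were, and 1 was lower where 4.44% were. The lowest, median and highest levels under hemeHpx were 10.3, 17.7 and 38 CPM for Hspa1a, 8.43, 14.7 and 29.1 CPM for Hspa1b, and 29.6, 32.5 and 36.6 CPM for Dnajb1. The ranges of all 3 overlapped with control. The log2 fold changes were 0.73 ± 0.23 for Hspa1a (adjusted p = 0.041), 0.74 ± 0.22 for Hspa1b (adjusted p = 0.039), 0.18 ± 0.06 for Dnajb1 (adjusted p = 0.048) and −0.25 ± 0.08 for Hspa4 (adjusted p = 0.04). All 4 lay close to the threshold. Without the filter on low counts they were at adjusted p = 0.055, 0.054, 0.078 and 0.058 in the same order, and with the correction for GC and length the log2 fold changes were 0.55, 0.54, 0.11 and −0.19 with adjusted p = 0.15, 0.13, 0.19 and 0.082. Hspa4 had 242, 314 and 383 CPM in controls and 234, 272 and 290 CPM under hemeHpx.

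Set directly against heme-albumin at 200 μM, hemeHpx gave lower levels of Hspa8, Hspa4, Hsph1 and Bag3, 4 of 10 members where 12.9% of all genes were lower. The log2 differences were −0.23 ± 0.07 for Hspa8 (adjusted p = 0.014), −0.29 ± 0.08 for Hspa4 (adjusted p = 0.0052), −0.26 ± 0.07 for Hsph1 (adjusted p = 0.0048) and −0.23 ± 0.07 for Bag3 (adjusted p = 0.018). Bag3 had a median of 92.0 CPM and Hsph1 one of 123 CPM under hemeHpx, beside 102 and 119 CPM in controls. The inducible HSP70 genes did not pass, with intervals that leave room for a difference either way. For Hspa1a the difference was 0.08 (95% interval −0.37 to 0.52), for Hspa1b −0.03 (−0.45 to 0.40) and for Dnajb1 −0.05 (−0.17 to 0.07). In the wider network 2 genes were higher and 21 lower than under heme-albumin, all 8 TRiC subunits (Tcp1 −0.37), Hspa9 (−0.51, adjusted p = 4.2e-10), Hspd1 (−0.43), Stip1 (−0.35) and Hsp90ab1 (−0.29) among them. In the same comparison 13 of the 37 cell type markers were higher under hemeHpx, 5 of them microglial, where 2016 of 15554 genes were higher. The part of the markers was not tested. The summed level of the microglial markers under hemeHpx ran from 251 to 712 CPM. Both comparisons use the same hemeHpx libraries, and the heme-albumin comparisons above share its controls.

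Free Hb asked whether the protein that carries heme had the same effect. At 24 h and at 48 h, and at 200 and 400 μM, 0 members passed in edgeR and 0 in DESeq2. The share of all genes called was 0.0971% for 200 μM and 0.522% for 400 μM at 24 h, and 0.31% and 0.601% at 48 h. At an unadjusted p under 0.05 there were 4 members for 400 μM at 24 h (Bag3, Dnajb4, Hsph1 and Hspa8) and 0 in each of the other 3 comparisons. Hspa1a had 4.13, 8.34 and 51 CPM in the 24 h controls, 4.64, 9.91 and 16.6 CPM with Hb at 200 μM and 6.7, 11.2 and 26.4 CPM at 400 μM. Its log2 fold change at 24 h was −0.29 (95% interval −0.78 to 0.20) at 200 μM and −0.13 (−0.60 to 0.35) at 400 μM. At 48 h it was 0.04 (−0.46 to 0.54) and 0.09 (−0.41 to 0.59). Heme-albumin and Hb libraries belonged to different batches and were not compared in 1 model. Bag3 at 400 μM and 24 h had a log2 fold change of 0.32 ± 0.09 (adjusted p = 0.12), and with the 24 h libraries fitted alone it passed with 0.30 (adjusted p = 0.035). Its levels were 60.5, 64 and 70.4 CPM in controls and 62.3, 75.1 and 120 CPM under Hb. No gene of the wider network passed under Hb at either dose or time in edgeR.

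HbHp asked what hemoglobin did when held by haptoglobin. At 24 h HbHp at 400 μM gave higher Hspa1a (3.59-fold, 95% interval 2.25 to 5.72), Hspa1b (3.99-fold, 2.61 to 6.09), Dnajb1 (1.53-fold) and Dnajb4 (1.24-fold) than control, 4 of 10 members where 3.1% of all genes were higher. The median log2 fold change of the members was 0.30. Hspa1a stood at 97.2, 71, 60.2 and 32.4 CPM in the 4 libraries, and Hspa1b at 79.5, 68.7, 54.6 and 26 CPM. The first 3 were above every control of 24 h and the last, library replicate 4, was below the highest control (51 CPM for Hspa1a and 39.7 CPM for Hspa1b, both in control replicate 8). Dnajb1 stood at 70.6, 61.3, 51.7 and 40.8 CPM, all above the highest of the controls, which had 31.7, 33.5 and 38.4 CPM as lowest, median and highest. Dnajb4 stood at 51.3, 46.1, 50.2 and 47.9 CPM against 36.6, 40.1 and 50.7 CPM in controls, and overlapped. The log2 fold changes were 1.84 ± 0.34 for Hspa1a (adjusted p = 0.0001), 2.00 ± 0.31 for Hspa1b (adjusted p = 2.2e-06), 0.61 ± 0.08 for Dnajb1 (adjusted p = 6.7e-09) and 0.31 ± 0.07 for Dnajb4 (adjusted p = 0.0031).

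The remaining members did not pass at 24 h. Hspb1 stood at 49.3, 34.6, 22.9 and 11.5 CPM, in the same order of libraries as Hspa1a, against 6.2, 14.2 and 31.1 CPM in controls. Its log2 fold change was 0.89 ± 0.30 (adjusted p = 0.067), and it passed without HbHp replicate 4 (1.16, adjusted p = 0.01) and without control replicate 8 (1.04, adjusted p = 0.021). Hsph1 stood at 125, 123, 116 and 115 CPM against 93 to 119 CPM in controls, with a log2 fold change of 0.22 (adjusted p = 0.11), and passed without control replicate 8 (0.25, adjusted p = 0.047). Bag3 ran from 70.5 to 83.5 CPM, above the controls, but its log2 fold change of 0.28 had an adjusted p of 0.24. Hspa4 had a log2 fold change of −0.14 (adjusted p = 0.11). Within the E2 libraries alone (3 controls), the log2 fold changes under HbHp at 400 μM were 1.30 ± 0.44 for Hspa1a (adjusted p = 0.12), 1.44 ± 0.40 for Hspa1b (adjusted p = 0.044), 0.56 ± 0.13 for Dnajb1 (adjusted p = 0.01) and 0.30 for Dnajb4 (adjusted p = 0.083). The calls of Hspa1a and Dnajb4 were thus not held within the prefix. No cell type marker passed in this comparison, and the summed microglial markers ran from 444 to 898 CPM against 149 to 932 CPM in controls. The summed choroid plexus markers ran from 0.884 to 1892 CPM (median 1086) against 0.405 to 901 CPM (median 213). Their median was 1.56 CPM with Hb at 400 μM and 1.09 CPM with Hp. Against controls, medians were 626 and 314 CPM for mural, 111 and 75.8 for endothelial and 357 and 374 for neuronal markers. The part of these cells in the chaperone values was not tested.

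The dose and the partners of HbHp were compared at 24 h. At 200 μM, Dnajb4 alone of the members was higher than control (1.25-fold), where 1.66% of all genes were higher, with 45.7, 49.5 and 52.3 CPM as lowest, median and highest and a log2 fold change of 0.33 ± 0.06 (adjusted p = 0.00026). Within E2 alone this was 0.32 ± 0.09 (adjusted p = 0.056). Hspa1a at 200 μM had 11.5, 19.7 and 32.5 CPM and a log2 fold change of 0.18, and Hspa1b one of 0.28. Between 400 and 200 μM, Hspa1a differed by 1.66 ± 0.31 (adjusted p = 0.002), Hspa1b by 1.71 ± 0.28 (adjusted p = 0.00024) and Dnajb1 by 0.54 ± 0.07 (adjusted p = 3.1e-07), 3 of 10 members where 0.152% of all genes were called higher. The Hspa1a call needed HbHp 400 μM replicate 1, without which it was 1.40 (adjusted p = 0.096). Dnajb4 did not differ detectably between the doses (log2 difference −0.02, adjusted p = 0.96).

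Against free Hb of the same dose, HbHp at 400 μM had higher Hspa1a (3.92-fold), Hspa1b (4.46-fold), Dnajb1 and Hspb1 (2.28-fold) at 24 h, 4 of 10 members where 1.18% of all genes were called higher. The log2 differences were 1.97 ± 0.34 for Hspa1a (adjusted p = 0.00029), 2.16 ± 0.31 for Hspa1b (adjusted p = 4.2e-06), 0.51 ± 0.08 for Dnajb1 (adjusted p = 7.6e-06) and 1.19 ± 0.30 for Hspb1 (adjusted p = 0.02). The HbHp and Hb libraries did not overlap for Hspa1a and Hspa1b, with 32.4 CPM as the lowest and 26.4 CPM as the highest Hspa1a level. The Hspb1 call was lost without HbHp replicate 1 (0.83, adjusted p = 0.32) and without replicate 2 (1.10, adjusted p = 0.081). At 200 μM, HbHp against Hb called Dnajb4 alone of the members (1.2-fold, log2 difference 0.26 ± 0.06, adjusted p = 0.02), where 0.413% of all genes were called higher. Within E2 alone it was 0.20 (adjusted p = 1), and with the correction for GC and length 0.19 (adjusted p = 0.09). The comparisons of HbHp at 400 μM with Hb at 400 μM and with HbHp at 200 μM were chosen after the data had been seen.

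Haptoglobin alone was the control for the carrier. Against it, HbHp at 400 μM had higher Hspa1a (2.31-fold), Hspa1b (2.47-fold) and Dnajb1 (1.48-fold) at 24 h, 3 of 10 members where 0.522% of all genes were called higher. The log2 differences were 1.21 ± 0.30 (adjusted p = 0.024), 1.30 ± 0.27 (adjusted p = 0.0032) and 0.56 ± 0.07 (adjusted p = 1.2e-08). Hp libraries had 11.4, 19.6 and 37.9 CPM of Hspa1a and 33.7, 37.0 and 44.3 CPM of Dnajb1, and overlapped with the lowest HbHp library in both. Single HbHp libraries decided the Hspa1a call, which was 0.95 (adjusted p = 0.53) without replicate 1, 1.17 (adjusted p = 0.12) without replicate 2 and 1.25 (adjusted p = 0.057) without replicate 3. The Hspa1b call was lost without replicate 1 (1.10, adjusted p = 0.17) and without replicate 2 (1.2, adjusted p = 0.05). With the 24 h libraries fitted alone neither passed, with 1.13 for Hspa1a (adjusted p = 0.17) and 1.18 for Hspa1b (adjusted p = 0.075). Within E2 alone all 3 passed, with 1.51 for Hspa1a (adjusted p = 0.0038), 1.54 for Hspa1b (adjusted p = 0.00067) and 0.63 for Dnajb1 (adjusted p = 2.7e-05), and Hsph1 was also higher (0.31, adjusted p = 0.007).

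**Figure D3:**
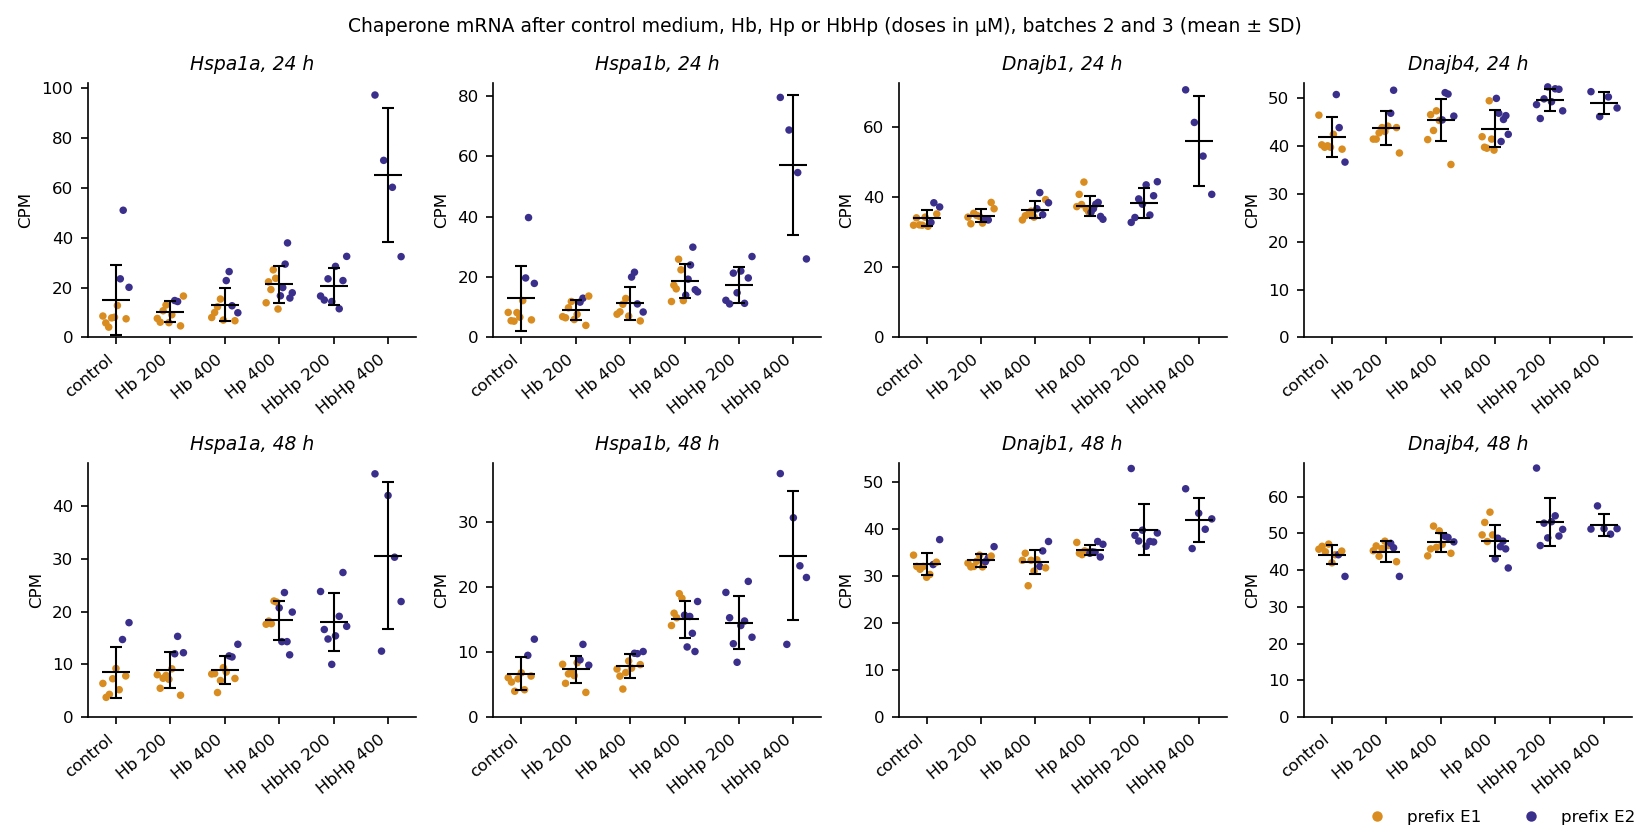
CPM of Hspa1a, Hspa1b, Dnajb1 and Dnajb4 in each library of batches 2 and 3 at 24 h (upper row) and 48 h (lower row), by treatment, with points coloured by the prefix of the library name (E1 or E2) and the mean and SD of each group. The 4 HbHp libraries of 400 μM at 24 h reach 97.2 CPM for Hspa1a and 70.6 CPM for Dnajb1, and the E2 controls lie above the E1 controls for Hspa1a.

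At 48 h the inducible HSP70 genes and Dnajb4 were again higher under HbHp. At 400 μM Hspa1a was 2.65-fold (95% interval 1.68 to 4.18), Hspa1b 3.03-fold (1.99 to 4.59), Dnajb4 1.24-fold and Dnajb1 1.19-fold above control, 4 of 10 members where 7.39% of all genes were higher. The 5 libraries had 46.1, 12.5, 42, 30.3 and 21.9 CPM of Hspa1a and 37.5, 11.2, 30.7, 23.3 and 21.5 CPM of Hspa1b. In both genes 4 of the 5 lay above every control, and replicate 2 lay within the control range, which was 3.74, 7.27 and 17.9 CPM for Hspa1a and 3.98, 6.07 and 12 CPM for Hspa1b. Dnajb4 had 51.2, 57.5, 51.3, 49.8 and 51.3 CPM, all above the highest control of 47.1 CPM. The log2 fold changes were 1.41 ± 0.33 for Hspa1a (adjusted p = 0.0016), 1.60 ± 0.30 for Hspa1b (adjusted p = 7e-05), 0.31 ± 0.07 for Dnajb4 (adjusted p = 0.00061) and 0.25 ± 0.07 for Dnajb1 (adjusted p = 0.014). Dnajb1 had 48.5, 35.8, 43.3, 39.9 and 42.1 CPM, and its call was lost without replicate 1 (0.19, adjusted p = 0.11) and without replicate 3 (0.22, adjusted p = 0.062). The library code of replicate 4 at 24 h and replicate 2 at 48 h was the same, and that code had the lowest Hspa1a, Hspa1b and Dnajb1 of its group at both times.

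Within E2 alone, with 2 controls at 48 h, HbHp at 400 μM gave 1.04 ± 0.45 for Hspa1a (adjusted p = 0.19), 1.36 ± 0.42 for Hspa1b (adjusted p = 0.049), 0.42 ± 0.10 for Dnajb4 (adjusted p = 0.0068) and 0.19 for Dnajb1 (adjusted p = 0.48). Hspb1 had 13.8, 12.4, 25.6, 17 and 12.1 CPM at 48 h, with a log2 fold change of −0.30 (adjusted p = 0.58), and Bag3 one of 0.03. At 200 μM, Hspa1b (1.77-fold) and Dnajb4 (1.26-fold) were above control, 2 of 10 members where 7.04% of all genes were called higher. The log2 fold change was 0.83 ± 0.28 for Hspa1b (adjusted p = 0.038), 0.34 ± 0.06 for Dnajb4 (adjusted p = 6.1e-05) and 0.65 ± 0.30 for Hspa1a (adjusted p = 0.16). The Hspa1b call was lost within E2 alone (0.59 ± 0.39, adjusted p = 0.41) and without HbHp 200 μM replicate 1 (0.75, adjusted p = 0.09), while Dnajb4 passed within E2 alone (0.45 ± 0.09, adjusted p = 0.0039). Hspa1b had 8.44, 14.5 and 20.9 CPM and Dnajb4 46.7, 52 and 67.8 CPM in these 8 libraries. Between the doses 0 members passed in edgeR or in DESeq2, where 0.127% of all genes did in either direction, and 2 had an unadjusted p under 0.05, Hspa1a with 0.76 ± 0.30 and Hspa1b with 0.77 ± 0.27. Markers of other cells lower under HbHp at 400 μM were Gfap (−0.69), Mobp (−0.45) and P2ry12 (−0.93), 3 of 37 where 751 of 16473 genes were lower, and their part was not tested.

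Against Hb at 400 μM and 48 h, HbHp had higher Hspa1a (2.49-fold), Hspa1b (2.6-fold), Dnajb1 and Dnajb4, 4 of 10 members where 2.84% of all genes were called higher, in a comparison chosen after the data had been seen. Hspa1b ranges did not overlap, with 11.2 CPM as the lowest HbHp and 10.1 CPM as the highest Hb library. The log2 differences were 1.31 ± 0.33 for Hspa1a (adjusted p = 0.01), 1.38 ± 0.30 for Hspa1b (adjusted p = 0.0023), 0.23 for Dnajb1 (adjusted p = 0.049) and 0.22 for Dnajb4 (adjusted p = 0.045). Within E2 alone fewer members were called. The Hspa1a call was lost without HbHp replicate 1 (1.12, adjusted p = 0.052) and without replicate 3 (1.16, adjusted p = 0.054). That of Dnajb4 was lost on leaving out any of the 5 HbHp libraries (0.18 to 0.23), and that of Dnajb1 on leaving out replicate 1, 3, 4 or 5 (0.17 to 0.24). At 200 μM, HbHp against Hb called Dnajb4 alone of the members (1.25-fold, log2 difference 0.32 ± 0.06, adjusted p = 0.00063), where 3.14% of all genes were called higher. Against Hp at 400 μM, Dnajb1 alone of the members passed at 48 h (1.17-fold, 0.23 ± 0.07, adjusted p = 0.049), where 1.03% of all genes were called higher. It was lost without replicate 1 (0.17, adjusted p = 0.25), 3 (0.20, adjusted p = 0.16), 4 (0.24, adjusted p = 0.09) or 5 (0.23, adjusted p = 0.083), and in DESeq2 (0.22, adjusted p = 0.056). Hspa1a differed from Hp by 0.31 ± 0.30 (95% interval −0.27 to 0.90, adjusted p = 0.64).

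Hp at 400 μM without hemoglobin also had higher inducible HSP70 genes than control at 48 h, and the size of this difference depended on the library prefix. At 24 h 0 members passed in edgeR or in DESeq2, where 0.704% of all genes did, and 3 had an unadjusted p under 0.05, Hspa1a (0.63 ± 0.28), Hspa1b (0.69 ± 0.25) and Dnajb4 (0.16). Without control replicate 8, Hspa1b passed (0.91, adjusted p = 0.036). At 48 h Hspa1a (2.13-fold), Hspa1b (2.3-fold) and Dnajb4 (1.16-fold) were higher, 3 of 10 members where 4.88% of all genes were called higher. In the same comparison 2 of the 37 cell type markers passed, the astrocytic Aldh1l1 lower (−0.87) and the mural Rgs5 higher (0.67), where 1773 of 16473 genes passed. The part of the markers was not tested. The log2 fold changes were 1.09 ± 0.28 (adjusted p = 0.007), 1.2 ± 0.26 (adjusted p = 0.0013) and 0.22 ± 0.06 (adjusted p = 0.0075). Hspa1a had 11.8, 18.2 and 23.6 CPM under Hp and Hspa1b 10.1, 15.5 and 19 CPM, and both overlapped with control. With the 48 h libraries fitted alone, Hspa1a (0.95, adjusted p = 0.051) and Dnajb4 (0.21, adjusted p = 0.052) just missed the threshold.

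Within E1, Hp gave log2 fold changes of 1.39 ± 0.31 for Hspa1a (adjusted p = 0.0094) and 1.38 ± 0.27 for Hspa1b (adjusted p = 0.0027) at 24 h, and 1.70 ± 0.31 (adjusted p = 0.00023) and 1.72 ± 0.28 (adjusted p = 4.6e-05) at 48 h. Within E2 they were −0.21 (adjusted p = 0.95) and −0.10 (adjusted p = 0.97) at 24 h, and 0.24 (adjusted p = 0.94) and 0.53 (adjusted p = 0.79) at 48 h. The controls stood apart between the prefixes, while the Hp libraries did not. Hspa1a controls at 24 h had 4.13, 7.84 and 12.8 CPM in E1 as lowest, median and highest and 20.1, 23.5 and 51 CPM in the 3 E2 libraries, and at 48 h 3.74, 6.38 and 9.22 CPM in E1 and 14.7 and 17.9 CPM in the 2 E2 libraries. Hp libraries at 24 h had a median Hspa1a of 20.8 CPM in E1 and 18.9 CPM in E2, and at 48 h 18.2 and 17.1 CPM. In a test of the difference itself, chosen after the data had been seen, the Hp effect in E2 minus that in E1 was −1.79 ± 0.42 for Hspa1a (adjusted p = 0.044) and −1.65 ± 0.38 for Hspa1b (adjusted p = 0.043) at 24 h, 2 of 10 members where 0.107% of all genes were lower. At 48 h it was −1.60 ± 0.47 for Hspa1a (adjusted p = 0.039) and −0.36 ± 0.11 for Hsph1 (adjusted p = 0.048), 2 of 10 where 2.27% were lower, and −1.32 ± 0.43 for Hspa1b (adjusted p = 0.059). Hp libraries were all of batch 3, which held 1 control of each prefix at each time, so these values rest on few controls of the same batch. The part of batch and prefix in them was not tested further.

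Time in culture was compared in the controls. From 24 h to 48 h Hspa1b fell by 0.81 on the log2 scale (SE 0.23, adjusted p = 0.027) and Hsp90aa1 fell by 0.19 (SE 0.05, adjusted p = 0.012), 2 of 10 members where 2.85% of all genes were lower. Hsp90aa1 controls had 453, 490 and 565 CPM at 24 h and 393, 424 and 490 CPM at 48 h, and overlapped. The Hspa1b call rested on control replicate 8 of 24 h, without which the difference was −0.55 (adjusted p = 0.15), and within E1 alone it was −0.44 (adjusted p = 0.31). Of the 37 cell type markers 6 passed in the same comparison, where 742 of 16473 genes did. Mobp (−0.42), Mog (−0.38) and Mag (−0.31) of oligodendrocytes and the endothelial Pecam1 (−0.73) were lower, and the microglial Cx3cr1 (1.37) and P2ry12 (0.56) were higher. The summed microglial markers ran from 149 to 932 CPM at 24 h and from 203 to 1633 CPM at 48 h. Their part in the chaperone values was not tested. In tests of whether an effect differed between 48 h and 24 h, 0 members passed for Hb at 200 μM and 0 for HbHp at 200 μM in edgeR and in DESeq2, where 0% and 0.0121% of all genes did. At an unadjusted p under 0.05 there were 0 members for Hb and 1 for HbHp, Hsp90aa1 with 0.15. The difference of the HbHp effect was 0.46 for Hspa1a and 0.54 for Hspa1b.

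The same 42 genes of the wider network were read in batches 2 and 3. Under HbHp at 24 h 2 genes were higher at 200 μM, where 1.66% of all genes were, and 2 at 400 μM, where 3.1% were, Chordc1, a HSP90 co-chaperone (0.24 and 0.25), and St13, which links HSP70 to HSP90 (0.16 and 0.17), and 1 was lower at 400 μM, the J-domain gene Dnajb5 (−0.30). At 48 h 7 of the 42 were higher and 2 lower at 200 μM, where 7.04% of all genes were higher, and 5 were higher and 2 lower at 400 μM, where 7.39% were higher. Of 16473 genes tested, 799 were lower at 200 μM and 751 at 400 μM, and at 400 μM and 24 h 339 were. Chordc1 (0.32 and 0.30) and Bag4 (0.25 and 0.28) were higher at both doses, and the ubiquitin ligase Stub1 (−0.19 and −0.21) and Dnajb5 (−0.34 and −0.40) were lower at both. Hsf2 was higher at 400 μM (0.23). Hp alone called 0 at 24 h, and at 48 h called Dnaja4 higher (0.31) and 5 genes lower, Hsp90ab1 (−0.23) and Dnajb5 (−0.39) among them. Of 16473 genes tested, 804 were higher and 969 lower under Hp at 48 h. Comparisons with the same controls are not independent, so the shared genes are given side by side only.

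**Figure D4:**
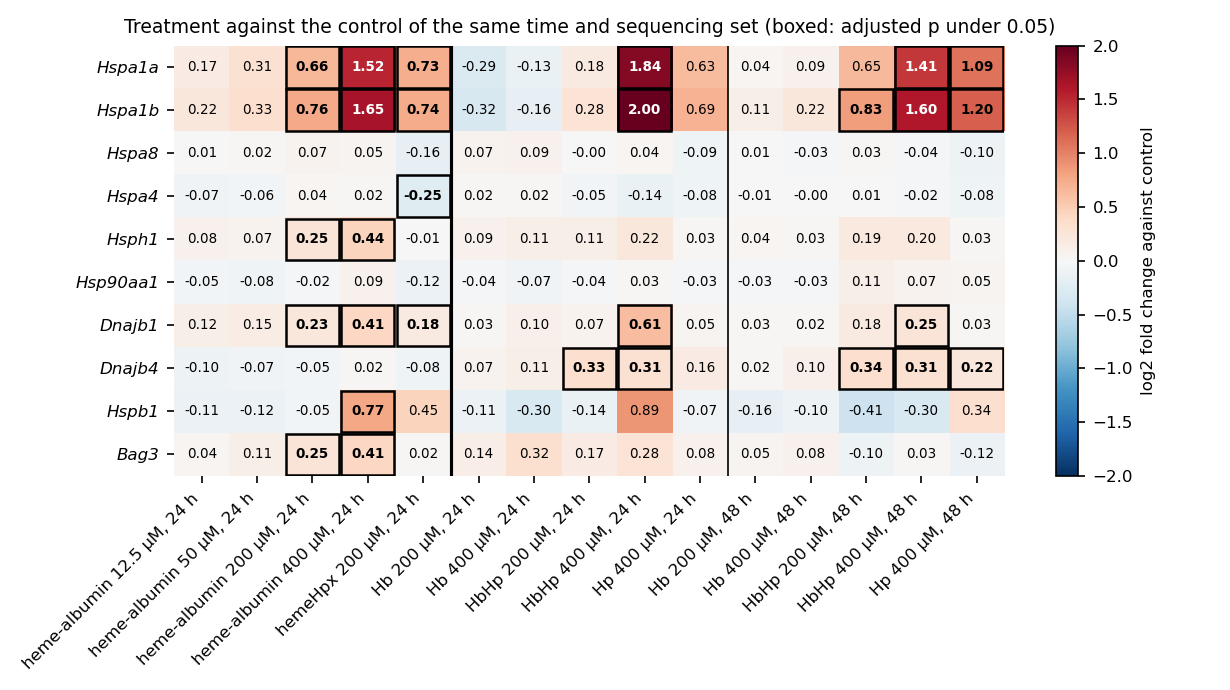
Log2 fold change of the 10 members (vertical) under 15 treatments, doses and times (horizontal). Each is against the untreated control of the same batch set and time. A box marks an adjusted p under 0.05 in the main edgeR test. Hspa1a and Hspa1b are boxed in 6 and 7 of the 15 columns and reach 1.84 and 2.00 under HbHp at 400 μM and 24 h, while Hspa8 and Hsp90aa1 are boxed in none.

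Over the 15 comparisons with a control, Hspa1b was higher in 7, Hspa1a in 6, Dnajb1 and Dnajb4 in 5 each, Hsph1 and Bag3 in 2 each and Hspb1 in 1. Hspa4 was lower in 1, and Hspa8 and Hsp90aa1 passed in none of the 15, at an edgeR adjusted p of 0.05. These are calls of the main tests, and some were lost in the alternatives given above. Within E2 alone, with few controls, Hspa1a did not pass under HbHp at 400 μM at either time or under Hp at 48 h. With the correction for GC and length, Hspa1a did not pass under hemeHpx or under heme-albumin at 200 μM. Dnajb1 was called under heme-albumin at 200 and 400 μM, hemeHpx and HbHp at 400 μM, and Dnajb4 under HbHp at both doses and Hp at 48 h. Batch 1 and batches 2 and 3 were not compared in 1 model. In the order of group means, neighbours mostly differed by less than the larger SD of the pair. For Hspa1a and Hspa1b the exceptions were the top step, from the next group to heme-albumin at 400 μM in batch 1 and to HbHp at 400 μM at 24 h, and the step from Hb at 400 μM to HbHp at 200 μM at 48 h.

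Within groups, the members did not vary as 1 block. After removal of group means, and of batch and prefix in batches 2 and 3, Hspa1a and Hspa1b had a Pearson correlation of 0.94 over the 60 libraries of batch 1 and 0.95 in batches 2 and 3, and reads from the stretches they share cannot be told apart. Hspa8 and Hspa4 had 0.85 and 0.63, and Hspa4 and Hspb1 −0.77 and −0.65. The median over the 45 pairs of members was −0.12 in batch 1 and 0.14 in batches 2 and 3. Libraries share depth and composition, so these values are a description with no test. Against the mean standardised log2 CPM of the 10 members, the genes most alike among 14158 genes in batch 1 were Ifrd1 (0.73), Btbd10 (0.72), Stam, Rab39b and Nop14 (0.70 each), and of the wider network Chordc1 and Hspa9 (0.67 each). Among 14116 genes in batches 2 and 3 they were Tnfrsf12a and Srxn1 (0.66 each), Fosl1 and Gadd45b (0.64 each) and Sqstm1 (0.63), and of the network Hspa9 (0.54).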

How the data were processed

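Poly(A) RNA libraries (TruSeq mRNA, Illumina NovaSeq) of brain slice cultures were sequenced by the authors, who deposited whole read counts per Ensembl gene for each library, without normalization. The submitters' processing notes name featureCounts and GRCm39. Promoter sequences came from RefSeq on GRCm38.p6, so no gene positions are given beside the counts. Symbols were found for 25600 of 25655 and 25424 of 25528 identifiers.

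From the counts, edgeR 4.0.16 (R 4.3.3) gave TMM scaling, filterByExpr (smallest count 10, smallest total 15) and its quasi-likelihood F test. P-values were adjusted by Benjamini-Hochberg over all genes tested, with a threshold of 0.05. Batch 1 (60 libraries, 15554 genes) was fitted by group, and batches 2 and 3 (107 libraries, 16473 genes) with batch and library prefix as terms. The study used DESeq2, run here (1.42.0) as an alternative. Figures were drawn with matplotlib 3.10.9. CPM values are on TMM-scaled library sizes. Intervals are 95%. Depth limits the low Hspa1a and Hspa1b most, with a median of 22054776 counts per library in batch 1 and 32626873 in batches 2 and 3.

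The 10 members, the network and marker lists were chosen with earlier results of these data known. All members are named in every comparison, and of the network at most the 3 genes per role with the largest change among those called. Of 28 comparisons, 24 were planned and 4 were added, beside a test of the Hp effect between prefixes. In simulated counts with 200 altered genes, the fit found 93% of the 100 genes set to a log2 change of 1 for heme-albumin at 400 μM, and 88% for HbHp at 400 μM and 24 h. The simulated counts held no batch or prefix effect, so the HbHp share does not cover the uneven spread of these groups. Neither share speaks for changes smaller than 1. The other altered genes were set to a smaller change, and their share is not given here. In 630 pairs of libraries of the same group and batch, the lowest chi-square per degree of freedom was 3.48, so none of these pairs was a repeat deposit. Pairs of a group across batches 2 and 3 were not compared. Alternatives were RLE scaling, no filter, Hspa1a and Hspa1b summed to 1 gene, a correction for GC and length, other batch terms, subsets of libraries and leaving out single libraries. The 21 libraries without a group entered no comparison.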

Additional observations from a re-analysis of the deposited data

Results flagged for a closer look

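Of 160 sets of 1 member in 1 group of 4 to 10 libraries, 11 held a library far from the rest of its group, and chance alone gives about 1 in 20. HbHp at 200 μM and 48 h replicate 1 was such a library for 5 members. It had 1998 CPM of Hspa8 (the others 1322 to 1482), 709 CPM of Hsp90aa1 (449 to 526), 52.8 CPM of Dnajb1 (36.3 to 39.7) and 67.8 CPM of Dnajb4 (46.7 to 54.8), and its Bag3 was the lowest of the group at 27.4 CPM (61.6 to 77.1). Hspa8 stood at 1704 CPM in HbHp 400 μM 24 h replicate 1 (the others 1551 to 1553). Hsp90aa1 stood at 384 CPM in heme-albumin 200 μM replicate 8 (314 to 348) and Dnajb4 at 57.5 CPM in HbHp 400 μM 48 h replicate 2 (49.8 to 51.3). Hspb1 was low in 3 libraries, with 4.97 CPM in Hb 400 μM 24 h replicate 3 (8.71 to 16.5), 7.18 CPM in control 48 h replicate 5 (15.5 to 23.9) and 8.13 CPM in Hb 200 μM 48 h replicate 6 (13.7 to 21.3).

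The effect of Hp at 400 μM differed between the library prefixes. The effect in E2 minus that in E1 was −1.79 for Hspa1a and −1.65 for Hspa1b at 24 h, and −1.60 for Hspa1a and −0.36 for Hsph1 at 48 h, in edgeR's test of the difference.

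The 20 libraries with the treatment tag HbHpx_400uM, 10 at each time, entered no comparison, since the labels leave their group open. Their median lay above the highest control of batches 2 and 3 of the same time for several members. For Hspa1b it was 44.8 CPM at 24 h (range 26.1 to 55.5) and 33 CPM at 48 h (25.4 to 50.0), and for Hspa1a 27.2 CPM at 48 h (17.1 to 46.7). For Hspb1 it was 68.8 CPM (44.9 to 162) and 67 CPM (33.8 to 97.9), for Hsph1 143 CPM (105 to 168) and 122 CPM (101 to 148), and for Dnajb4 54.7 CPM (44.9 to 63) and 50.8 CPM (46 to 53.7). For Bag3 at 24 h it was 83.7 CPM (75.2 to 108). These differences were not tested.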

How the results depend on the processing

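Values here are the numbers of the 10 members called, with the reported number in brackets. Over the alternatives run for all comparisons, 286 counts stayed within 1.5 times the reported one and 54 did not, and of the single members' directions 2 reversed. These were Hspa8 with neither batch nor prefix as a term, 0.19 for HbHp at 200 μM against control at 24 h and 0.18 for HbHp against Hb at 400 μM and 48 h. The causes were not tested. No scaling moved the median of all genes by over 0.1.

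DESeq2 and RLE scaling each called 0 for HbHp against Hp at 48 h (1). Without the low-count filter that comparison gave 0 and hemeHpx against control 0 (4). Correcting for GC and length gave 3 for heme-albumin at 200 μM (5), 5 for 400 against 200 μM (2), 0 for hemeHpx against control (4) and 0 for HbHp against Hb at 200 μM and 24 h (1). Summing Hspa1a and Hspa1b to 1 gene, which by itself lowers a count that held both, gave 1 for 400 against 200 μM (2), HbHp at 200 μM and 48 h (2) and control 48 against 24 h (2). With batch alone, HbHp against Hb at 200 μM gave 2 at 24 h (1) and 4 at 48 h (1), and HbHp at 200 μM against control 5 at 48 h (2). With neither term, HbHp gave 3 at 200 μM (1) and 7 at 400 μM (4) at 24 h and 7 at 200 μM at 48 h (2), HbHp against Hb at 200 μM gave 3 (1) and 6 (1), and HbHp against Hp at 48 h gave 0 (1).

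The fits within E1 alone and without HbHp 200 μM 48 h replicate 1 were chosen after seeing the data. Within E1 alone, Hp at 24 h gave 2 (0) and control 48 against 24 h gave 1 (2). Within E2 alone, HbHp at 200 μM gave 0 at 24 h (1) and 1 at 48 h (2), HbHp at 400 μM gave 2 at each time (4), HbHp against Hb gave 0 at 200 μM and 24 h (1) and 2 at 400 μM and 48 h (4), Hp at 48 h gave 0 (3) and control 48 against 24 h gave 0 (2). With each time fitted alone, Hb at 400 μM and 24 h gave 1 (0), HbHp against Hb gave 0 at 200 μM and 24 h (1) and 2 at 400 μM and 48 h (4), HbHp against Hp gave 1 at 24 h (3) and 0 at 48 h (1), and Hp at 48 h gave 1 (3).

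Libraries with the same code in their name deviated together more often than others (median correlation 0.254 against −0.0133 in batch 1 and 0.123 against −0.00971 in batches 2 and 3). Of such pairs 96 of 169 and 154 of 291 were above 0.1, against a smaller share of other pairs, 528 of 1331 and 1884 of 4926. The main tests did not take them as paired, and these counts do not show that pairing was absent. A fit with the code as a block was run as an alternative. With the block, HbHp against Hb at 200 μM gave 0 at 24 h (1) and 2 at 48 h (1), HbHp at 200 μM and 48 h gave 4 (2), HbHp against Hp at 48 h gave 0 (1) and control 48 against 24 h gave 1 (2).

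Leaving out single libraries gave 0 to 1 for Hp at 24 h (0), 1 to 4 for HbHp against Hp at 24 h (3) and 0 to 1 at 48 h (1), 1 to 3 for HbHp at 200 μM and 48 h (2), 1 to 3 for HbHp against Hb at 400 μM and 48 h (4), and 1 to 2 for control 48 against 24 h (2).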
